A study of Homo sapiens with 24 samples.

Results

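The immune set comprised 96 genes of interferon, cytokine, chemokine, antigen presentation and leukocyte surface biology, measured in neuroblastoma cell lines carrying a FOXP1 or a GFP transgene. Its members were the symbols that begin with HLA-, IFI, IFN, OAS, GBP, IRF, STAT, ISG, MX1 or MX2, IL, CXC, CCL, CCR, TNF, TRIM, PSMB8 or PSMB9, TLR or CD and a digit, among the probes that the study listed as different between FOXP1 and GFP cultures of at least one line. Each gene was read from 1 probe, the brightest of its symbol over all arrays, so that the set held 96 of the 43291 non-control probes and 96 of the 3504 symbols read from the study's lists, of which only the CHP-212 list was used in full. The CHP-212 list contributed 47 members, the IMR-32 list 40 and the SK-N-BE(2) list 27. CXCL12 was the only member in all 3 lists as used here. The rule matched letters and not functions, and it also took in genes with other roles, such as STATH, which encodes the salivary protein statherin, and TRIM54 and TRIM55, which encode muscle ubiquitin ligases.

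The series consisted of 24 one-colour arrays of total RNA from the established neuroblastoma lines CHP-212, SK-N-BE(2) and IMR-32. In each line, a retroviral doxycycline-inducible system carried either FOXP1, a forkhead transcription factor, or GFP, a fluorescent protein that served as control, and both were kept as polyclonal cultures. Each of the 6 cultures was sampled at 0, 12, 24 and 72 h of induction, and the promoter of the vector was described as leaky, so that 0 h was not free of transgene. A group thus held 4 arrays, which were time points of one culture and not separate cultures, and the p-values below measure only the spread between such arrays. Each of the 6 slides carried 0 and 12 h, or 24 and 72 h, of both cultures of 1 line.

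As background, type I and type III interferons bind receptors that activate JAK kinases and STAT proteins, and the resulting factor complex binds the interferon-stimulated response element (ISRE) of target genes. Type II interferon acts through the gamma-activated sequence (GAS), and it raises MHC genes, which present peptides to T cells. Neuroblastoma is a tumour of the sympathetic lineage. Chemokines direct the migration of leukocytes, and TNF family ligands and toll-like receptors act largely through NF-kB.

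All levels are given as log2 of the processed signal minus the 75th percentile of the array, so that 0 is the brightness of the probe at that percentile. A probe is called detected on an array where the scanner software marked it well above background. The share of probes marked so ran from 72.8% to 82.3% on the IMR-32 arrays and from 73.6% to 80.4% on the SK-N-BE(2) arrays. On the CHP-212 arrays it was 53.9% to 60.4% for the slide of 0 and 12 h and 78.0% to 81.5% for the slide of 24 and 72 h. The FOXP1 probe itself was higher in FOXP1 than in GFP cultures by 1.40 in IMR-32 and by 1.98 in CHP-212. In SK-N-BE(2) the difference was -0.20, so the FOXP1 arrays of that line are called "labelled FOXP1" throughout. That probe was itself named through the study's lists of differing probes, and it reads RNA. The paper reports inducible FoxP1 protein by Western blot in its FOXP1 cell lines, relative to GFP. Of 13 sympathetic markers only 4 had a probe, named through the study's lists. Among these, the noradrenergic genes DBH and CHGB had mean levels of -5.09 and -5.03 in CHP-212, 1.11 and 2.65 in IMR-32 and 4.83 and 3.97 in SK-N-BE(2). TH, the first enzyme of catecholamine synthesis, stood at 3.17 in CHP-212, 1.85 in SK-N-BE(2) and 0.51 in IMR-32. Of the haematopoietic markers, PTPRC, which encodes the pan-leukocyte antigen CD45, was detected on 0 of 24 arrays, and the members CD48 and CD53 were detected on 0 and 2, CD72 on 10, CD33 on 12 and CD52 on 14.

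Most of the immune set was dim. Only 14 of the 96 members (14.6%) were detected on all 24 arrays, against 48.5% of all probes. Another 35 were detected on 12 to 23 arrays, 17 on 6 to 11 and 28 on 1 to 5. The interleukin IL1A and the lymphocyte antigen CD48 were detected on none. By line, 48 members were detected on at least 4 of the 8 arrays of IMR-32, 59 of CHP-212 and 52 of SK-N-BE(2). Of these, 42 were detected in all 3 lines, 11 only in CHP-212, 4 only in SK-N-BE(2) and 2 only in IMR-32, and 29 members reached this mark in no line. The interferon group had the widest gap between lines, with 7 of 15 members detected in IMR-32, 10 in SK-N-BE(2) and 12 in CHP-212. TNFSF10, the death ligand TRAIL, was detected on 1 of 24 arrays, at -3.67 in SK-N-BE(2) labelled FOXP1 at 12 h. On the CHP-212 slide of 0 and 12 h, 44 members were detected on none of the 4 arrays, compared with 18 on the slide of 24 and 72 h.

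**Figure D1:**
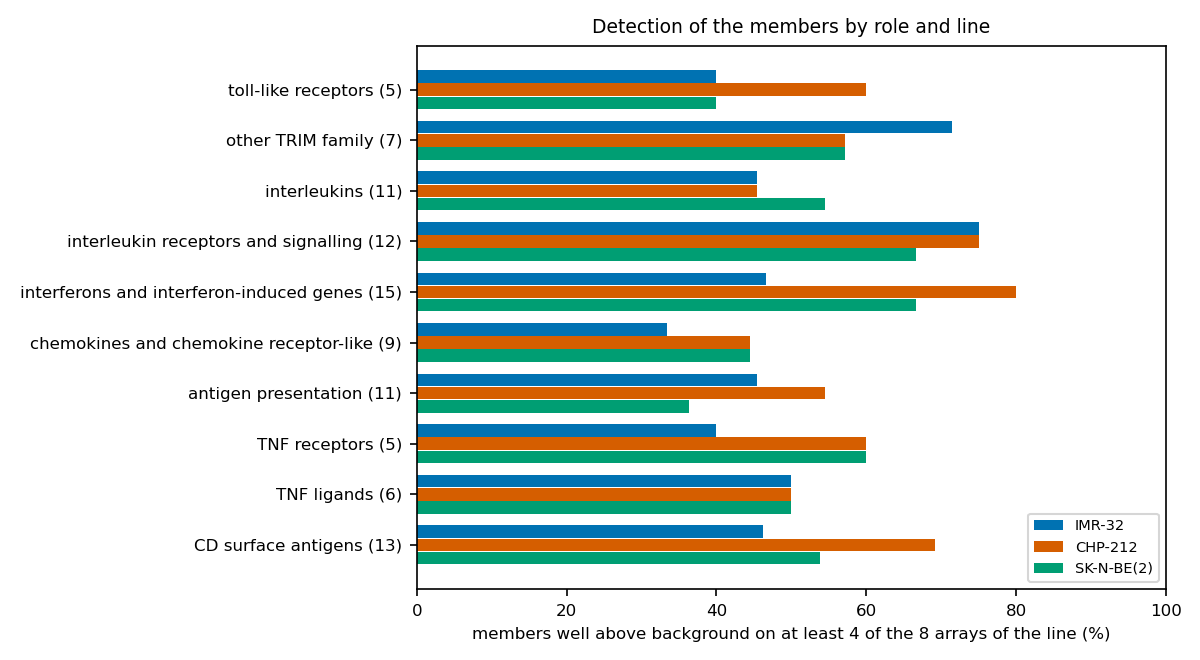
Share of members (%, horizontal axis) detected on at least 4 of the 8 arrays of each line, by role, with the number of members of each role in brackets and 1 bar per line. The interferon group shows 12 of 15 members in CHP-212 against 7 of 15 in IMR-32, while the TNF ligands show 3 of 6 in every line.

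A first question was how the lines themselves differed in these genes, which the choice of members did not use, since it rested on FOXP1 against GFP within a line. Of 67 members tested, which were those detected on at least 4 arrays of any 1 line, 41 were lower and 4 higher in IMR-32 than in CHP-212, with a background of 31.4% of all probes called in either direction (14.1% higher, 17.3% lower; adjusted p under 0.05 in limma and at least 2-fold). The median difference over the tested members was -1.62 on the log2 scale, against -0.11 over all probes. Against SK-N-BE(2), 34 of the 67 members were higher and 10 lower in CHP-212, where 31.2% of all probes were called (15.8% higher, 15.4% lower), and the median was 1.20 against -0.09 over all probes. Between IMR-32 and SK-N-BE(2), 8 members were higher and 24 lower in IMR-32, with 24.5% of all probes called (11.1% higher, 13.4% lower). That imbalance was gone with normexp, another background correction, where 6 were higher and 6 lower. Over all probes, normexp called 4922 in this contrast against 8890. A member could enter these counts through the line in which it is high, so the members detected on at least 4 arrays of both lines compared were also counted. Of 44 such members, 24 were lower and 4 higher in IMR-32 than in CHP-212 (median -1.27), with 27.1% of all probes detected in both called (12.5% higher, 14.6% lower, median -0.09). Of 46, 18 were higher and 8 lower in CHP-212 than in SK-N-BE(2), with 27.5% called (13.5% higher, 14% lower), and their median was 0.69 against -0.10 over such probes. Between IMR-32 and SK-N-BE(2), 6 of 44 were higher and 18 lower in the former, with 21% called (9.41% higher, 11.6% lower). Over all 67, the level of CHP-212 was called above both other lines for 30 members and below both for 3, which were CD200, IFI27 and TRIM7. The share of all probes called above or below both lines was not computed, so these 2 counts have no background beside them. The 30 include members that entered through CHP-212 alone, such as CCL26, TLR3 and TRIM6. The counts were alike for the 33 tested members that the CHP-212 list did not hold, of which 20 were lower and 2 higher in IMR-32 than in CHP-212. With the GFP cultures alone, 39 members were lower and 8 higher in IMR-32 than in CHP-212. Each line had 2 slides of its own, so line and slide cannot be told apart, and without the CHP-212 slide of 0 and 12 h, a choice made after seeing the data, 44 members were called between IMR-32 and CHP-212 and 43 between CHP-212 and SK-N-BE(2).

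**Figure D2:**
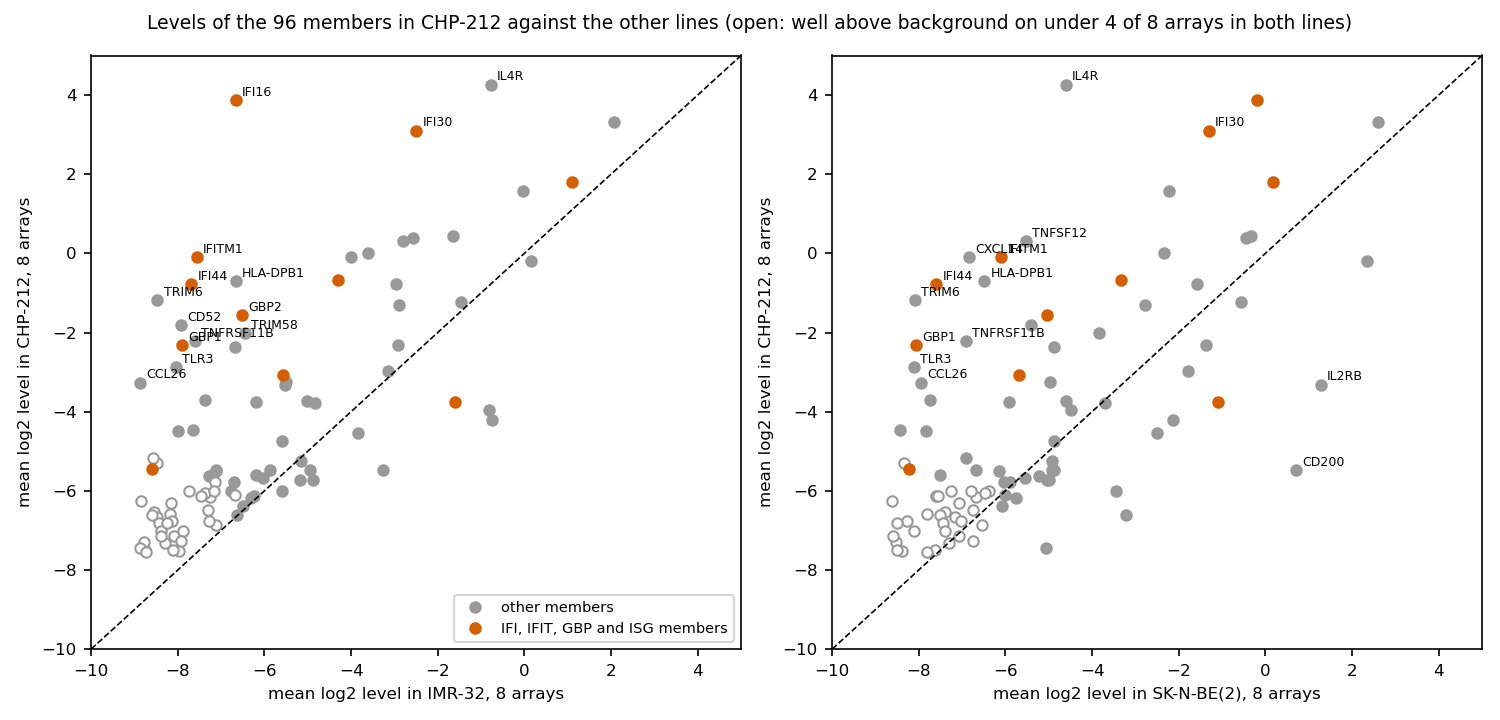
Mean log2 level of each of the 96 members in CHP-212 (vertical axis, 8 arrays) against IMR-32 (left) and SK-N-BE(2) (right), with the diagonal dashed, members of the IFI, IFIT, GBP and ISG families in orange and open circles for members detected on under 4 of 8 arrays in both lines. Of the 11 orange genes, 10 lie above the diagonal in both panels, and IFI27 lies below it.

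A second question was how the FOXP1 cultures differed from the GFP cultures. The members were chosen by this very difference, which settled both which lists held a member and which did not, so the differences between cultures are descriptions, with no test of single members. In IMR-32, 16 of 48 measured members were higher and 13 lower in the FOXP1 culture, with a background of 12.2% of all probes called (6.34% higher, 5.86% lower). All but 1 of these 29 stood in the IMR-32 list, and with normexp only 4 members were higher and 3 lower. Over all probes, normexp called 1425 there against 4123. In CHP-212, 5 of 59 were higher and 7 lower, with a background of 3.02% (1.93% higher, 1.08% lower), and all 12 were listed for the line. With time point as a replicate block, 10 were higher and 8 lower in CHP-212, where 1169 of all probes were called against 994. In SK-N-BE(2), 4 of 52 were higher and 2 lower, with a background of 0.711% (0.426% higher, 0.285% lower), and all 6 were listed for the line. There, 0 members were called without 0 h, and 3 without the 12 h array labelled FOXP1. Over all 34044 probes tested, these settings called 40 and 127 against 242, so the calls fell over the whole array. At the edge of the lists, the smallest listed difference among members detected on all 8 arrays of a line was 1.03 for IL11 in CHP-212 and -0.95 for TRIM5 in SK-N-BE(2). The largest such difference outside the lists as used here was -1.57 for IL11 in IMR-32, 0.97 for TNFSF12 in CHP-212 and 0.69 for IL12A in SK-N-BE(2).

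The interferon-induced members comprised 11 genes of the IFI, IFIT, GBP and ISG families. The promoters of 5 genes that were lower in IMR-32 than in CHP-212 are shown, with that of IFI27, which was higher in IMR-32. The windows run from 250 bases before to 50 bases after the annotated start, are taken from RefSeq (GRCh38.p14) and are printed in the direction of transcription, with capitals marking matches of the ISRE core, searched on both strands. IFIT1 lies at chr10:89392373-89392672 (plus strand), IFI44 at chr1:78649539-78649838 (plus), IFI44L at chr1:78620198-78620497 (plus), IFITM1 at chr11:313790-314089 (plus), GBP1 at chr1:89065159-89065458 (minus) and IFI27 at chr14:94110486-94110785 (plus).
IFIT1: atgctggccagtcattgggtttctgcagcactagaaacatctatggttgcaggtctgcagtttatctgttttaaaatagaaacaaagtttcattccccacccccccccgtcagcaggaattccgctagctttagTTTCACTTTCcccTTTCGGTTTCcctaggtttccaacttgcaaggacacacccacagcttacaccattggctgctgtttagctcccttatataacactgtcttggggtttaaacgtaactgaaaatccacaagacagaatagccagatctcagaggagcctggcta
IFI44: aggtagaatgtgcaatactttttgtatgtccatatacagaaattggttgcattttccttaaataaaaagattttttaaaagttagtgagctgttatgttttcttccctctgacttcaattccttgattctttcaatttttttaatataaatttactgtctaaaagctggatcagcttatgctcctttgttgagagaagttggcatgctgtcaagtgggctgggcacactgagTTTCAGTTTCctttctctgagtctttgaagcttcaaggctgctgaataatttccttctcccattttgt
IFI44L: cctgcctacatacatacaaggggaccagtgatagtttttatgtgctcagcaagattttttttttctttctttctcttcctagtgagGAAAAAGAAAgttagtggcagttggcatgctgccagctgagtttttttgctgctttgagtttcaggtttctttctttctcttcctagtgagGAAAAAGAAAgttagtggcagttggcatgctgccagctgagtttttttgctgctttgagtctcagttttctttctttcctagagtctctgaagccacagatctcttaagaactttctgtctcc
IFITM1: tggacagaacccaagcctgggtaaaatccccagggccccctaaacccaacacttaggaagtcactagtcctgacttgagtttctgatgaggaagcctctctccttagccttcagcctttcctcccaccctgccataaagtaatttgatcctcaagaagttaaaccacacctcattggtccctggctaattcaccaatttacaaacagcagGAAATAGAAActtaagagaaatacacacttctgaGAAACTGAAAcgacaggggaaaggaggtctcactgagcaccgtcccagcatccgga
GBP1: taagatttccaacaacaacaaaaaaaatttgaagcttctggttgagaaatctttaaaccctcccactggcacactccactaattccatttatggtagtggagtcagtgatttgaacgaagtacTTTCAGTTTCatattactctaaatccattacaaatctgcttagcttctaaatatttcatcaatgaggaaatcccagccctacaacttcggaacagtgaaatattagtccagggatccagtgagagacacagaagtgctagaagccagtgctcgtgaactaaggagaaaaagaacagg
IFI27: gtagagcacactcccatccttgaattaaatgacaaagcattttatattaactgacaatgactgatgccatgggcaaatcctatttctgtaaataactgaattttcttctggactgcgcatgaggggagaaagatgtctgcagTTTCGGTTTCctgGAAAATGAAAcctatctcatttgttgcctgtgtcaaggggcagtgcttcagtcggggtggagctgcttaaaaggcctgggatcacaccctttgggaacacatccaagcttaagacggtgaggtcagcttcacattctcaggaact
The ISRE core occurred in 996 of 27305 promoter windows (3.65%), in 14 of the 74 members that matched a window (18.9%), and in 7 of 9 matched interferon-induced members. Counted from the annotated start to the leftmost base of the match, it stood at -116 and -103 in IFIT1, at -18 in IFI44, at -164 and -73 in IFI44L, at -40 and -6 in IFITM1, at -127 in GBP1 and at -108 and -95 in IFI27. The seventh was ISG20, with a match at -69, whereas the windows of IFI16 and IFI30 held none of these letters. Some matches in IFIT1 and IFI27 lie next to each other with 3 bases between them. The GAS core, searched in the same way, occurred in 7.88% of all windows and in 5 members, among them IFI27 and IFITM1. A match is a description of the letters and not evidence of a bound factor.

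Of these 11 genes, 9 were lower and 1 was higher in IMR-32 than in CHP-212, and 10 were higher and 1 lower in CHP-212 than in SK-N-BE(2). The shares of all probes were 17.3% lower and 14.1% higher in the first contrast and 15.8% higher and 15.4% lower in the second. Of the 6 detected in both IMR-32 and CHP-212, 4 were lower and 1 higher in IMR-32, and of the 8 detected in both CHP-212 and SK-N-BE(2), 7 were higher and 1 lower in CHP-212. Among all probes detected in both lines, 14.6% were lower and 12.5% higher in the first contrast and 13.5% were higher and 14% lower in the second. The median differences of those detected in both were -3.06 (6 genes) and 3.07 (8 genes). Between IMR-32 and SK-N-BE(2), 4 were lower in IMR-32 and none was higher, where 13.4% of all probes were lower and 11.1% higher. Of the 6 detected in both of these lines, 2 were lower, where 11.6% of such probes were. With normexp, GBP2 was at -0.13, IFI30 at -0.79 and IFITM1 at 0.08 in this contrast. IFI16, a nuclear DNA sensor, ranged over the 8 arrays from 2.63 to 4.49 (median 4.04) in CHP-212, from -1.39 to 0.87 (median 0.07) in SK-N-BE(2) and from -7.76 to -5.88 (median -6.70) in IMR-32, where 3 of 8 arrays detected it. No array of a line overlapped with those of another. The fitted difference was -10.53 for IMR-32 against CHP-212 and -6.47 for IMR-32 against SK-N-BE(2). These sizes are uncertain, since most IMR-32 arrays did not detect the probe. With normexp, differences from a line with dim signal were smaller, at -7.71 and -3.83 for these IFI16 contrasts.

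IFI44, an antiproliferative protein of the cytoplasm, ranged from -1.96 to -0.29 (median -0.67) in CHP-212. It was detected on 1 of 8 arrays in each of the other lines, with medians of -7.33 in IMR-32 and -7.53 in SK-N-BE(2). IFI44 thus entered the test through CHP-212 alone. Its fitted difference of CHP-212 from SK-N-BE(2) was 6.81, or 3.62 with normexp, so the size is uncertain. IFITM1, a membrane protein that restricts virus entry, was -0.10 ± 1.05 (SD, n = 8) in CHP-212, -6.09 ± 0.64 in SK-N-BE(2) and not well above background on any IMR-32 array, which put it at least 90.5-fold higher in CHP-212 than in IMR-32 on this scale, whereas the normexp difference was -3.71 on the log2 scale. Its probe may share sequence with the close relatives of the IFITM cluster, so the assignment to IFITM1 is uncertain. GBP1 and GBP2, guanylate-binding GTPases of cell-autonomous immunity, were -2.31 ± 0.72 and -1.55 ± 0.28 in CHP-212. GBP1 was detected on 2 IMR-32 arrays and 1 SK-N-BE(2) array, all at 0 h, so it entered the test through CHP-212 alone. It was lower in IMR-32 than in CHP-212, by a fitted difference of -5.59, or -1.99 with normexp, so the size is uncertain. For GBP2 the difference was -4.96 (SE 0.26, adjusted p = 1.6e-13), and -2.48 with normexp.

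IFIT1, which binds foreign RNA ends and blocks translation, was detected on all 24 arrays. It ranged from -1.76 to 0.24 (median -0.74) in CHP-212, from -4.53 to -2.26 (median -3.31) in SK-N-BE(2) and from -5.77 to -2.92 (median -4.10) in IMR-32. The lowest CHP-212 array thus lay above the highest array of either other line, and the difference from IMR-32 was 3.63 in favour of CHP-212 (IMR-32 minus CHP-212 -3.63, SE 0.30, adjusted p = 5.48e-10). IFIT2, its paralogue, was detected only on the 4 CHP-212 arrays of 24 and 72 h, at -6.07 to -4.85, and was at least 2.24-fold higher in CHP-212 than in IMR-32. That call was lost under another background correction (difference -0.60, adjusted p = 0.196). IFI30, a lysosomal thiol reductase that prepares antigen, ranged from 2.77 to 3.41 in CHP-212, from -2.26 to -0.01 in SK-N-BE(2) and from -3.41 to -1.69 in IMR-32. ISG20, an exonuclease, was 1.81 ± 0.42 in CHP-212, 1.09 ± 0.25 in IMR-32 and 0.17 ± 0.92 in SK-N-BE(2), and it did not reach a 2-fold difference between IMR-32 and CHP-212 (-0.71, adjusted p = 0.00153).

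IFI27, a mitochondrial protein that is among the most responsive interferon targets in many tissues, ran the other way. It ranged from -4.83 to -2.78 (median -3.84) in CHP-212, from -2.46 to -0.99 (median -1.58) in IMR-32 and from -1.73 to -0.68 (median -1.15) in SK-N-BE(2). All arrays of CHP-212 lay below those of the other lines, by 2.66 against SK-N-BE(2) (CHP-212 minus SK-N-BE(2) -2.66, SE 0.22, adjusted p = 7.6e-10). Its window carries a pair of ISRE cores, as does that of IFIT1, which was highest and not lowest in CHP-212. IFI27 in IMR-32 was above CHP-212 by 2.15 (SE 0.22, adjusted p = 2.51e-08).

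**Figure D3:**
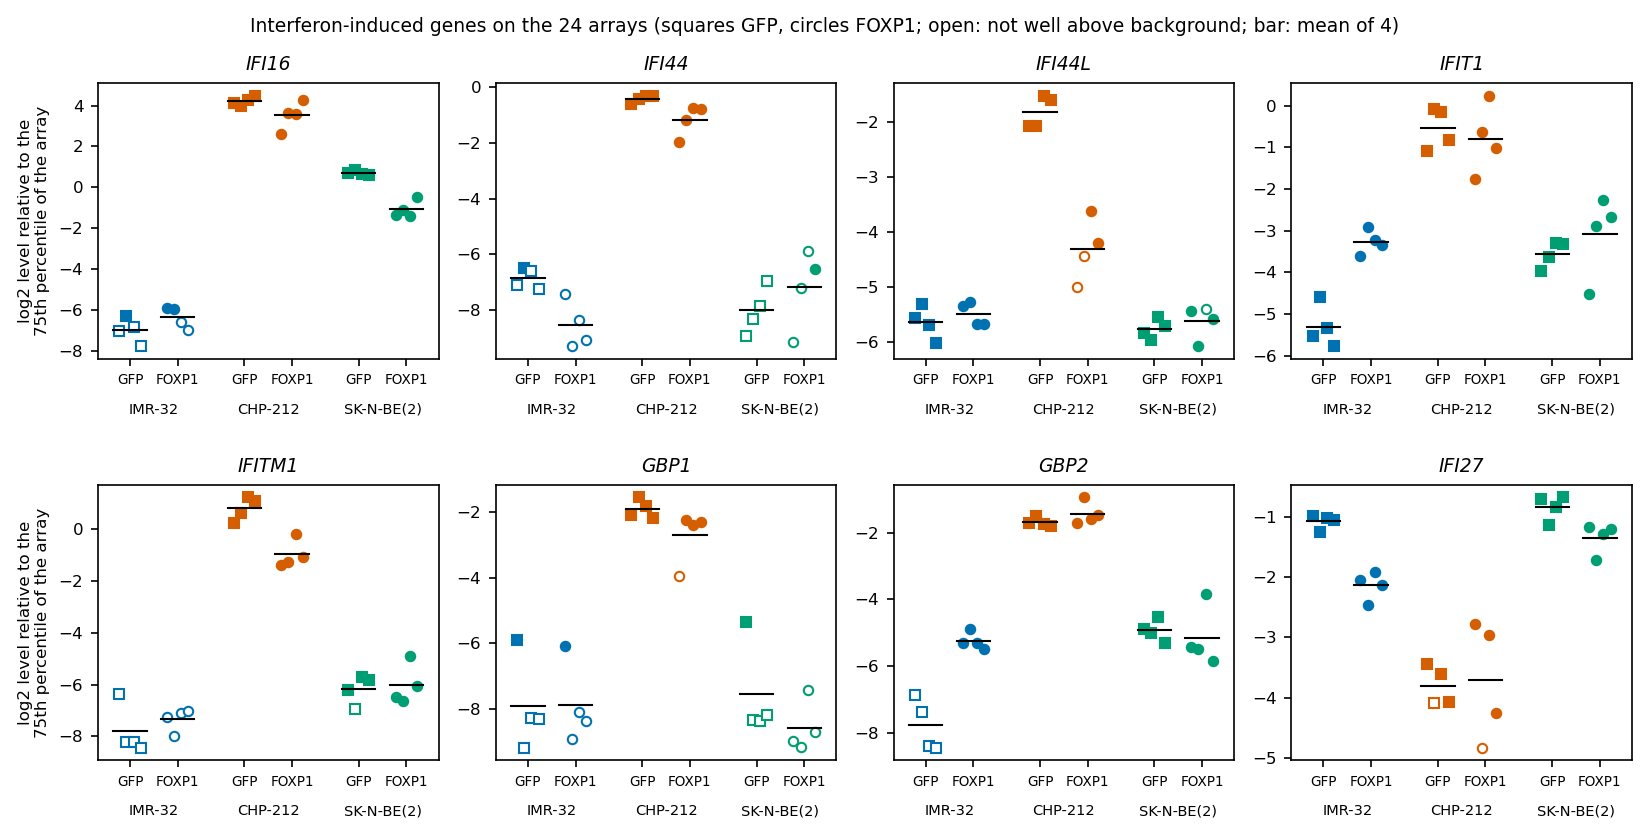
Log2 level relative to the 75th percentile of the array (vertical axis) of 8 interferon-induced genes on the 24 arrays, with squares for GFP and circles for FOXP1, the 4 time points from left to right, open symbols where the probe was not well above background and bars for the mean of 4 arrays. CHP-212 lies highest for 7 of the genes and lowest for IFI27, and IFI44L is split within CHP-212 by transgene.

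Within the lines, the FOXP1 cultures did not shift these genes one way. As a description, IFIT1 in IMR-32 read -5.54, -4.58, -5.34 and -5.77 in the GFP culture at 0, 12, 24 and 72 h, and -3.62, -2.92, -3.22 and -3.35 in the FOXP1 culture. The FOXP1 arrays lay above all GFP arrays, by 2.03 on average, or 1.28 with normexp. GBP2 in IMR-32 was detected on all 4 FOXP1 arrays, at -5.49 to -4.89, and on none of the GFP arrays, which put it at least 2.5-fold higher, with a normexp difference of 1.00 on the log2 scale. IFI27 in IMR-32 read -0.99, -1.25, -1.02 and -1.05 in the GFP culture and -2.05, -2.46, -1.91 and -2.14 in the FOXP1 culture, a difference of -1.06 that was -0.67 with normexp and -0.95 without the FOXP1 array of 12 h.

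In CHP-212 most of the described differences ran downward, although that of GBP2 (0.26) was positive. Those of IFI27 (0.09) and IFI30 (0.07) were near 0 and had no stable sign, at -0.10 and -0.09 without 0 h. IFI44L, a paralogue of IFI44, read -2.08, -2.07, -1.52 and -1.60 in the GFP culture and -5.00, -4.45, -3.62 and -4.20 in the FOXP1 culture, of which the 0 and 12 h arrays did not detect it. The difference was -2.50, or -1.33 with normexp, and the groups did not overlap. IFITM1 read 0.23, 0.61, 1.21 and 1.07 in the GFP culture and -1.39, -1.29, -0.20 and -1.08 in the FOXP1 culture, a difference of -1.77 with no overlap. IFIT1, which the CHP-212 list did not hold, had a difference of -0.25 (SE 0.42), with GBP1, also outside that list, at -0.80 (SE 0.38), IFI16 at -0.68 (SE 0.32) and IFI44 at -0.76 (SE 0.27). Each of these latter 3 was lower in the FOXP1 culture at all 4 time points.

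In SK-N-BE(2), IFI16 read 0.71, 0.87, 0.65 and 0.60 on the GFP arrays and -1.34, -1.11, -1.39 and -0.46 on the arrays labelled FOXP1, a described difference of -1.78. ISG20 ran upward there, from -0.97, -0.83, -0.56 and -0.13 to 0.41, 0.87, 1.45 and 1.08, a difference of 1.57. IFIT1, listed for IMR-32 only, had a difference of 0.47 (SE 0.45), IFI27 of -0.51 (SE 0.18) and IFITM1 of 0.16 (SE 0.42). TRIM5, a capsid-binding restriction factor, had the same order of lines as IFI16, at -2.37 ± 0.26 in CHP-212, -4.89 ± 0.92 in SK-N-BE(2) and -6.67 ± 0.92 in IMR-32 (n = 8 each).

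Among interferons and their receptors, IFNA2, a type I interferon, was detected on 3 of 24 arrays and IL29, now IFNL1, on 17. IL28RA, now IFNLR1, the specific chain of the type III interferon receptor, was detected on all 8 arrays of SK-N-BE(2), from -6.56 to -4.13, and on no array of the other lines. It was at least 2.96-fold higher in SK-N-BE(2) than in IMR-32 and at least 1.23-fold higher than in CHP-212. Within SK-N-BE(2) it read -5.14, -4.41, -4.45 and -4.13 on GFP arrays and -6.56, -5.43, -5.07 and -5.31 on arrays labelled FOXP1, but the difference was only -0.32 with normexp.

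The antigen presentation members described here were MHC class II genes. HLA-DPB1, the beta chain of the class II molecule DP, had a median of -0.73 in CHP-212, of -6.57 in IMR-32 and of -6.71 in SK-N-BE(2). It was higher in CHP-212 than in SK-N-BE(2) by a fitted 5.79, a size that is uncertain since only 3 of the 8 SK-N-BE(2) arrays detected it. HLA-DPA1, the alpha chain, was at -5.47 ± 0.62 in CHP-212, -7.13 ± 0.44 in IMR-32 and -6.67 ± 0.79 in SK-N-BE(2). It was detected on 4, 2 and 3 of 8 arrays in these lines, so its calls above both other lines came through CHP-212 alone. Within CHP-212, HLA-DPB1 read 0.16, 0.15, -0.16 and -0.25 with GFP and -1.28, -1.35, -1.21 and -1.65 with FOXP1, a described difference of -1.35, and for HLA-DPA1 it was -1.15. Probes of HLA genes can share sequence with alleles and close copies, here the pseudogene HLA-DPB2, so their assignment is uncertain.

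HLA-DOB, the beta chain of the DO molecule that tempers peptide loading, had described differences of opposite sign in 2 lines. In IMR-32 it read -4.04, -3.89, -4.89 and -5.09 with GFP and -1.84, -1.33, -1.91 and -2.16 with FOXP1. Every FOXP1 array exceeded every GFP array, a described difference of 2.67 (SE 0.30). In SK-N-BE(2) it read -1.03, -0.90, -1.26 and -0.30 with GFP and -2.53, -2.81, -3.15 and -2.39 on arrays labelled FOXP1, a described difference of -1.85 (SE 0.25). In CHP-212 the difference was 0.48 (SE 0.46), and the groups overlapped.

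Among the chemokines, CXCL12, the ligand of CXCR4 that retains and attracts progenitor cells, was detected on every array and listed for every line. In IMR-32 it read 1.33, 1.51, 1.44 and 1.59 with GFP and from -1.84 to -1.22 with FOXP1. This was a difference of -2.98 (SE 0.17), given like those of the other lines as a description. In CHP-212 it ran the other way, from 0.95, 0.70, 0.26 and 0.23 with GFP to 2.96, 2.32, 2.76 and 2.53 with FOXP1, a difference of 2.11 (SE 0.22). In SK-N-BE(2) it read -3.16, -2.82, -3.08 and -3.52 with GFP and -1.15, -1.16, -1.63 and -1.29 on arrays labelled FOXP1, a difference of 1.84 (SE 0.19). In each line the groups stood apart on all 4 time points. CXCL12 was higher in CHP-212 than in IMR-32 over both cultures (-1.61 for IMR-32 minus CHP-212, SE 0.14), but the order turned with the GFP cultures alone (0.93, adjusted p = 0.00186).

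CXCL14, an orphan chemokine of epithelia, was higher at all 4 time points in the FOXP1 cultures of IMR-32 and CHP-212, and on the SK-N-BE(2) arrays labelled FOXP1. In IMR-32 it was not well above background on any GFP array and read 0.40, 0.69, 0.20 and 0.29 with FOXP1, which was at least 125-fold higher on this scale. With normexp the difference was 4.47. In CHP-212 it read -1.75, -0.46, -0.20 and -1.03 with GFP and 0.70, 0.31, 0.77 and 0.91 with FOXP1, a described difference of 1.53 (SE 0.33). In SK-N-BE(2) the GFP arrays did not detect it, and the arrays labelled FOXP1 read -6.05, -5.86, -4.94 and -6.32. Among GFP cultures, CXCL14 was thus detected in CHP-212 only.

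Of the other chemokines, CCL25, a chemokine of thymus and gut, was detected on 18 of 24 arrays, with means of -4.93 in SK-N-BE(2), -5.46 in CHP-212 and -5.86 in IMR-32. CCL26, an eotaxin, was detected on all 8 CHP-212 arrays, from -3.84 to -2.60, on no IMR-32 array and on a single SK-N-BE(2) array, the GFP array of 24 h at -2.86. It was at least 10.3-fold higher in CHP-212 than in IMR-32. CXCL10, a type II interferon target that attracts T cells, was detected on 2 of 24 arrays. CCL11, another eotaxin, and CCL28, a mucosal chemokine, were each detected on 1 array, the 24 h array labelled FOXP1 of SK-N-BE(2). On that array 5 members were detected that the other 3 of the group did not detect, CCL11, CCL28, CD40LG, HLA-DRB6 and STATH, of which 4 stood in the SK-N-BE(2) list. These were 5.21% of members against 1.40% of probes, and the array was not alone in this, since on other arrays 0 to 11 members were detected in 1 array of the group only. CCL11 read -1.68 there, and the highest of the other 3 arrays read -7.11.

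Interleukin receptors were the best detected role, with a median of 21.5 of 24 arrays. IL4R, the alpha chain shared by the receptors of IL-4 and IL-13, had a lowest array of 3.44 and a median of 4.08 in CHP-212, and ranged from -1.27 to -0.33 (median -0.78) in IMR-32 and from -5.29 to -3.69 (median -4.87) in SK-N-BE(2). The 3 lines were fully separate, with 8.87 (SE 0.23, adjusted p = 1.6e-18) between CHP-212 and SK-N-BE(2) and 3.83 (SE 0.23, adjusted p = 7.36e-12) between IMR-32 and SK-N-BE(2). IL2RB, the beta chain of the receptors of IL-2 and IL-15 and typical of lymphocytes, was instead highest in SK-N-BE(2), at 1.27 ± 0.85 in SK-N-BE(2), -3.32 ± 1.09 in CHP-212 and -5.52 ± 0.49 in IMR-32 (n = 8 each). Its level in IMR-32 lay below that in SK-N-BE(2) (difference -6.79, SE 0.29, adjusted p = 1.76e-14). STAT5A, a transcription factor downstream of such receptors, was higher in IMR-32 than in CHP-212 by 3.13 (SE 0.25, adjusted p = 2.68e-10) and than in SK-N-BE(2) by 3.66 (SE 0.25, adjusted p = 3.62e-11). IL6R, the receptor chain for IL-6, was detected on 7 CHP-212 arrays and no SK-N-BE(2) array, and was at least 6.54-fold higher in CHP-212.

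IL17RD, also known as SEF and an inhibitor of fibroblast growth factor signalling, was detected on all 24 arrays and was read in both cultures of each line. In IMR-32 it read -4.71, -4.13, -3.39 and -3.45 with GFP and -1.29, -1.20, -0.91 and -1.49 with FOXP1, a described difference of 2.70 (SE 0.29). In SK-N-BE(2) it read -2.04, -1.61, -2.03 and -1.04 with GFP and 0.70, 1.01, 0.56 and 0.89 on arrays labelled FOXP1, a described difference of 2.47 (SE 0.24). It was lower in the FOXP1 culture of CHP-212 at all 4 time points, by 0.85 on average (difference -0.85, SE 0.20), which is under 2-fold.

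IL21R, the receptor of IL-21, read -4.10, -4.65, -4.40 and -4.12 with GFP and -1.43, -2.36, -2.24 and -2.59 with FOXP1 in CHP-212. This was a described difference of 2.16 (SE 0.26), and the groups did not overlap, although the GFP array of 12 h did not detect it. In IMR-32, whose list as used here did not hold it, the difference was -0.69 (SE 0.30). IL12RB2, a chain of the IL-12 receptor, was detected on all 4 FOXP1 arrays and no GFP array of IMR-32, at least 3.45-fold higher. With normexp the difference was 1.04 on the log2 scale. As a description, IL20RB, a chain of the receptors of IL-20 and related cytokines, was lower in the FOXP1 culture of IMR-32, where it read -2.09, -2.26, -2.30 and -1.97 with GFP and -3.70, -3.58, -3.92 and -3.45 with FOXP1, although with normexp the difference was only -0.57.

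Of the 11 interleukins, IL11, a cytokine of the IL-6 family, was the single one on all 24 arrays. In IMR-32, whose shortened list as used here did not hold it, it read -2.02, -2.50, -1.92 and -1.96 with GFP and -3.87, -3.83, -3.44 and -3.54 with FOXP1, a described difference of -1.57 (SE 0.18). In CHP-212 the described difference was 1.03, and it ran from 2.09 at 0 h to 0.21 at 72 h. IL12A, the p35 subunit of IL-12, was highest in SK-N-BE(2), at -3.44 ± 0.44 against -5.59 ± 1.24 in IMR-32 and -6.00 ± 0.25 in CHP-212 (n = 8 each). IL32 in CHP-212 was higher with FOXP1 by 1.26, as a description, with 2 of 4 arrays detected in each culture.

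**Figure D4:**
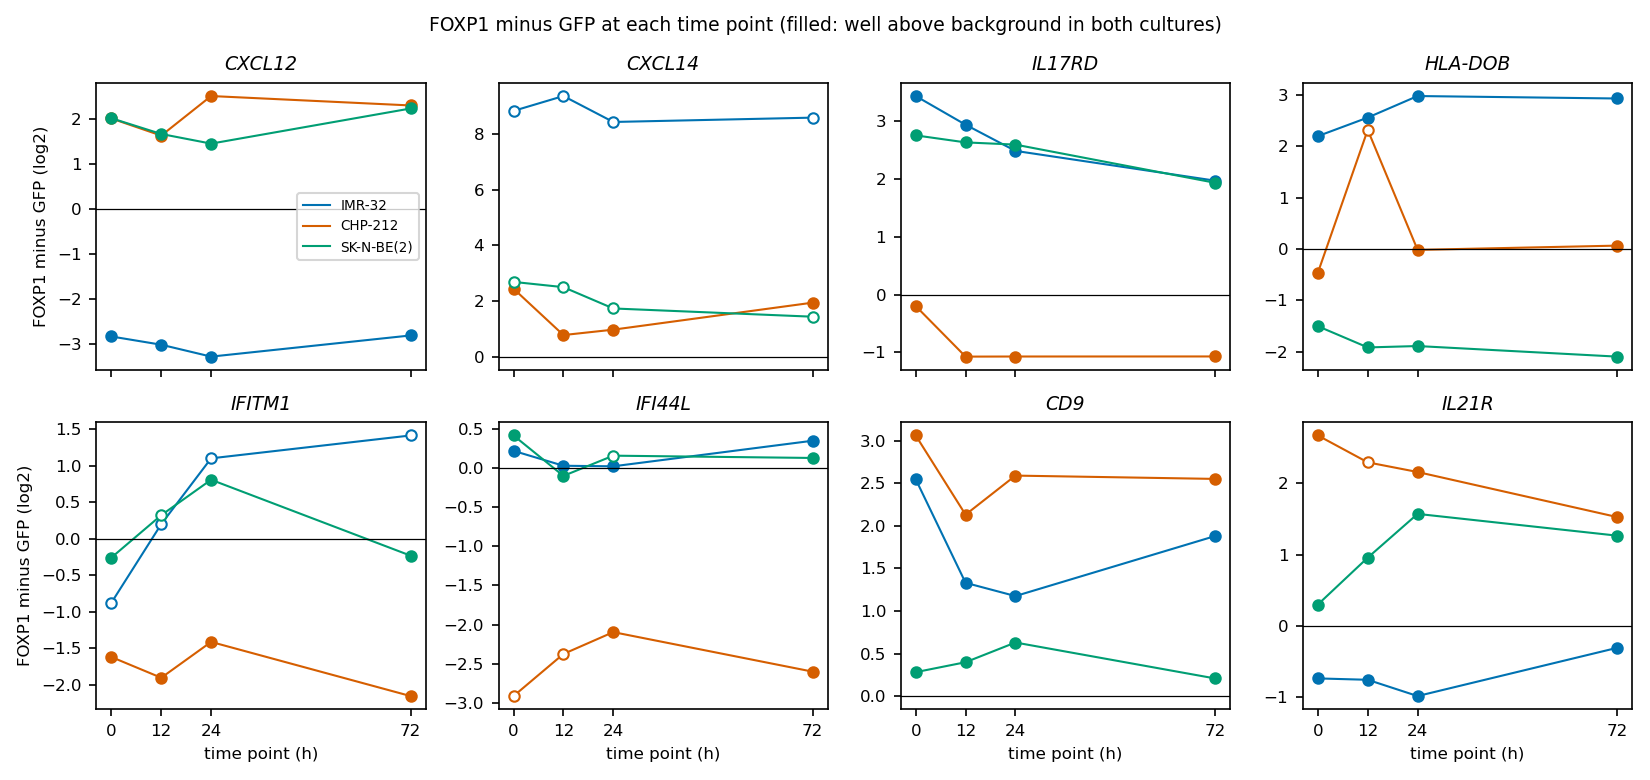
FOXP1 minus GFP on the log2 scale (vertical axis) at each time point (hours, horizontal axis) for 8 members, with 1 line of points per cell line and filled points where both cultures were well above background; the vertical scale differs between panels. CXCL12 lies below 0 in IMR-32 and above 0 in the other lines at all 4 times, HLA-DOB lies above 0 in IMR-32 and below 0 in SK-N-BE(2), and IL17RD lies below 0 in CHP-212 only.

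Of 5 TNF receptors 4 were tested, of which 4 were lower in IMR-32 than in CHP-212 and 3 were higher in CHP-212 than in SK-N-BE(2), against 17.3% and 15.8% of all probes. Only 2 were detected on at least 4 arrays of both lines compared, of which 2 and 1 were called. TNFRSF1A, the main receptor of TNF on non-immune cells, was 0.02 ± 0.20 in CHP-212, -2.33 ± 0.20 in SK-N-BE(2) and -3.60 ± 0.91 in IMR-32 (n = 8 each). The difference between CHP-212 and SK-N-BE(2) was 2.35 (SE 0.10, adjusted p = 1.07e-14). In IMR-32, TNFRSF1A read -4.37, -4.52, -4.34 and -4.53 with GFP and -3.00, -2.48, -2.86 and -2.70 with FOXP1, a described difference of 1.68. TNFRSF11B, the decoy receptor osteoprotegerin, was detected on all CHP-212 arrays, 1 IMR-32 array and 2 SK-N-BE(2) arrays, with medians of -2.70, -7.78 and -6.82. TNFRSF14, the receptor HVEM, had a described difference of -2.21 (SE 0.44) between the FOXP1 and GFP cultures of IMR-32, which was -0.52 with normexp. TNFRSF1B, the TNF receptor of lymphoid cells, was detected in SK-N-BE(2) on the 4 arrays labelled FOXP1, from -6.18 to -4.93, and on no GFP array.

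Among the ligands, TNFSF12, known as TWEAK, was ordered CHP-212 above IMR-32 above SK-N-BE(2), with medians of 0.18, -2.79 and -5.70. CHP-212 exceeded SK-N-BE(2) by 5.83 (SE 0.23, adjusted p = 1.23e-15). As a description, TNFSF12 in IMR-32 read -4.03, -3.22, -3.00 and -3.39 with GFP and -2.59, -1.88, -2.21 and -2.13 with FOXP1 (1.21, SE 0.24). Of the 5 toll-like receptors, TLR3, the endosomal sensor of double-stranded RNA, was detected on 7 of 8 CHP-212 arrays, 1 IMR-32 array and no SK-N-BE(2) array. It was at least 11.7-fold higher in CHP-212 than in SK-N-BE(2). TLR6 was at least 4.38-fold higher in CHP-212 than in IMR-32, and TLR1, its close relative on bacterial lipopeptides, was lower in IMR-32 by 2.44 (difference -2.44, SE 0.30, adjusted p = 3.95e-07). TLR4, the receptor of lipopolysaccharide, was detected on 4 of 24 arrays.

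TRIM6, a ubiquitin ligase of innate signalling, was detected on all CHP-212 arrays and on none of the other lines, at least 43.7-fold above IMR-32 and at least 37.9-fold above SK-N-BE(2). Within CHP-212, TRIM6 read -0.88, -0.44, -0.39 and -0.39 with GFP and -1.92, -1.98, -1.67 and -1.72 with FOXP1, a described difference of -1.30. TRIM7, which binds glycogenin, was instead lowest in CHP-212, with medians of -1.05 in IMR-32, -2.06 in SK-N-BE(2) and -4.18 in CHP-212, and had a described FOXP1 minus GFP difference of -1.13 (SE 0.28) in IMR-32. The muscle ligase TRIM55 was -3.22 ± 0.30 in SK-N-BE(2), was detected on 1 CHP-212 array, and in IMR-32 was detected on the 4 FOXP1 arrays and no GFP array, at least 3.45-fold higher with FOXP1. With normexp the latter difference was 1.21 on the log2 scale.

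Of the surface antigens, CD200, a ligand that restrains myeloid cells, is given as a description, since CHP-212 and IMR-32 listed it. In IMR-32 it read 0.96, 0.57, 0.49 and 0.49 with GFP and -6.11, -6.28, -8.28 and -8.01 with FOXP1, of which the latter 2 were not well above background. The described difference was -7.80 (SE 0.47), or -4.30 with normexp. In SK-N-BE(2), CD200 stayed between 0.36 and 1.02 over all 8 arrays, and in CHP-212 it had a median of -5.74, with 5 of 8 arrays detected. The averaged IMR-32 level lay 3.97 below SK-N-BE(2) (difference -3.97, SE 0.37), but between the GFP cultures alone the difference was -0.24 (adjusted p = 0.739).

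CD9, a tetraspanin, was listed for CHP-212 and IMR-32, so both differences are descriptions. In CHP-212 it read -1.59, -0.98, -1.53 and -1.88 with GFP and 1.47, 1.15, 1.07 and 0.67 with FOXP1, a difference of 2.59 (SE 0.24). In IMR-32 it read -1.27, -0.04, -0.51 and -1.07 with GFP and 1.28, 1.29, 0.67 and 0.81 with FOXP1, a difference of 1.73 (SE 0.28). SK-N-BE(2) held more CD9 than either, from 2.00 to 3.06, and its difference was 0.38 (SE 0.21). As a description, CD52, a small lymphocyte glycoprotein, read lower with FOXP1 in CHP-212, from -0.69, -0.53, 0.01 and 0.27 to -3.32, -4.27, -2.90 and -3.09 (difference -3.16, SE 0.34). CD52 is also a haematopoietic marker, and PTPRC was detected on no array. As a description, the pericyte antigen CD248 in IMR-32 was lower with FOXP1, at 1.41 ± 0.42 against 2.74 ± 0.20 (n = 4 each), and so was the B-cell antigen CD72. CD72 was detected on 4 GFP arrays and 1 FOXP1 array there, so the size of its difference (-2.85) is uncertain.

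The third question was whether the members changed with time. Only the steps from 0 to 12 h and from 24 to 72 h lie within slides, so these were tested over all 6 cultures. From 0 to 12 h, 1 of 49 members was called, with a background of 4.2% of all probes (0.39% higher, 3.81% lower). This was IFIT1, which rose by 0.96 (SE 0.19, adjusted p = 0.00607) and was higher at 12 h in 6 of 6 cultures. From 24 to 72 h, 0 of 49 members were called by limma, where the background was 0% of 33354 probes, and 6 members had an unadjusted p under 0.05. IFIT1 was lower at 72 h than at 24 h in 6 of 6 cultures, by 0.49 (difference -0.49, unadjusted p = 0.0217, adjusted p = 0.324). The rise of IFIT1 was no longer called under another background correction (0.53, adjusted p = 0.586).

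Other genes of these pathways were named only through the same lists of differing probes, which left few. Of 24 further interferon-stimulated genes, 5 had a probe, BST2, EIF2AK2, HERC5, PLSCR1 and SP110. Of these, 4 were lower and none higher in IMR-32 than in CHP-212, and 3 were higher and none lower in CHP-212 than in SK-N-BE(2), against 17.3% of all probes lower and 15.8% higher. Among those detected in both lines, 3 of 4 were lower in IMR-32 than in CHP-212 and 1 of 3 was higher in CHP-212 than in SK-N-BE(2). SP110, a nuclear body protein, was 0.55 ± 0.27 (SD, n = 8) in CHP-212 and had means of -7.87 in IMR-32 and -8.00 in SK-N-BE(2). These low means lie near background, so the size of the gap is uncertain. HERC5, the ligase that attaches ISG15, had a mean of -8.40 in SK-N-BE(2), also near background, against -1.79 in CHP-212. In IMR-32 it read -2.09, -2.71, -2.94 and -3.19 with GFP and was not well above background on any FOXP1 array, a described loss. PLSCR1, a phospholipid scramblase, was lower there with FOXP1 (-1.19) and EIF2AK2 higher by 1.08, also as descriptions. Over all arrays, EIF2AK2, the RNA-dependent kinase PKR, was at 0.93 in IMR-32, while SK-N-BE(2) was at 0.79 and CHP-212 at 0.80, and no line difference was called. Of 10 further antigen presentation genes none had a probe, of 11 cytokine signalling genes JAK1, LIF and LIFR had one, and of 7 NF-kB targets 2 did. Of the latter, 1 was measured and was lower in IMR-32 than in CHP-212 and SK-N-BE(2), where 17.3% and 13.4% of all probes were. It was detected on under 4 of 8 IMR-32 arrays, so it entered the test through the other lines alone. For the 3 cytokine signalling genes, 2 were higher with FOXP1 in IMR-32 and 1 was lower in CHP-212, as a description. Of all probes, 6.34% were higher in the former contrast and 1.08% lower in the latter. These genes were named through lists of this very difference, so their counts are no test.

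Markers of other cell types also differed between the lines. Of 11 haematopoietic markers 6 had a probe and 3 were tested, CD33, CD52 and CD72. Of these, 1 was lower in IMR-32 than in CHP-212, which was CD52, detected on 1 of 8 IMR-32 arrays. In CHP-212, 2 were higher than in SK-N-BE(2), CD52 by 3.61 and CD72, detected on 1 of 8 SK-N-BE(2) arrays. Of all probes, 17.3% were lower in the first contrast and 15.8% higher in the second. Among the markers detected in both lines, 0 of 1 and 1 of 2 were called. The endothelial marker CD34 was detected on 6 of 8 CHP-212 arrays, 1 IMR-32 array and no SK-N-BE(2) array. It was called higher in CHP-212 than in the other lines, with no exact size. The 1 mesenchymal marker, CD248, was lower in IMR-32 than in CHP-212 (-1.25). Of 13 sympathetic markers only 4 had a probe, named through the same lists of differing probes. Of these, 3 were higher and 1 lower in IMR-32 than in CHP-212, against 14.1% and 17.3% of all probes. In CHP-212, 1 was higher and 3 lower than in SK-N-BE(2), against 15.8% and 15.4%. CHGB and DBH were higher in IMR-32 than in CHP-212 by 7.68 and 6.20, and were lower in CHP-212 than in SK-N-BE(2) (-8.99 and -9.93). TH ran the other way, at -2.66 and 1.31 in the same contrasts. As a description, CHGB, DBH and TH were higher in the FOXP1 than in the GFP culture of IMR-32, by 2.82, 3.85 and 3.33. There, 6.34% of all probes were higher. Of the 4 sympathetic markers measured, 2 were higher with FOXP1 in CHP-212, against 1.93% of all probes. DBH was higher by 2.07 there, also as a description. The part of these markers in the differences of the immune set was not tested.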

How the data were processed

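Total RNA was labelled with Cy3 and hybridised to 24 one-colour Agilent arrays, which the authors scanned with Agilent Feature Extraction 10.7.3.1 per the file headers, and limma is named in the submitters' processing notes. The deposited intensity per spot is the background-subtracted processed signal. The authors' own table of linear intensities, on an unstated between-array scale with column medians of 156 to 157, ordered the probes as the processed signal did on every array (lowest Spearman rho 1), and served as an alternative after log2. Here log2 of the processed signal was taken, the 75th percentile of each array was subtracted, control spots were left out and spots that the software marked as outliers were set to missing, which left 43291 probes. Symbols and members came from the probe and symbol columns of the study's lists only, of which the IMR-32 and SK-N-BE(2) sheets were shortened (1997 and 642 probes used, with 1489 for CHP-212). The fold and p columns there hold the study's own comparisons and were not used. Members, lists and tests were chosen with earlier results of these data known.

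FOXP1 was compared with GFP within a line without pairing, as in the study's methods, over probes detected on at least 4 of 8 arrays. Lines were compared in 1 fit of 6 groups over all 24 arrays with both cultures at equal weight, and the time steps within slides over probes detected on at least 12 of 24 arrays. All fits used limma 3.58.1 (lmFit, eBayes) in R 4.3.3 with Benjamini-Hochberg adjustment over all probes tested, and a call needed an adjusted p under 0.05 and, except for time, a 2-fold difference. The scripts were tested on simulated data. Where no array of the dimmer group was well above background, the fold is a bound, taken against the dimmest signal that still counted as detected. The same time point of both cultures shared a slide, and their deviations from the group means correlated at 0.37 or more in IMR-32 and SK-N-BE(2) and at 0.053 to 0.55 in CHP-212. The number of arrays limits precision. Genes were named by rule: CXCL12, the 3 highest and 3 lowest listed or called members of each comparison, the members called in a line that another line had listed (up to 3 each way), the IFI, IFIT, GBP and ISG genes and TNFSF10, except that some items are not reported here. The members named beyond that, among them those given by role such as TLR1, TRIM54, IL32 and CD72, were chosen after their values were seen. Promoter windows are from RefSeq, and 22 members had none in the table used here.

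Alternatives were normexp background correction (offset 50, on median spot intensities), quantile normalization, the authors' values, other filters on dim probes, the replicate block, slide as a random block, fewer time points, GFP cultures alone, the methods' t-test and leaving out each array.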

Additional observations from a re-analysis of the deposited data

Results flagged for a closer look

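Within groups of 4 arrays, a single array stood apart (Dixon's criterion) in 4 of 111 groups checked, and chance gives about 5%. In IMR-32 GFP these were CD200 at 0 h, at 0.96, and ISG20 at 12 h, at 1.44. In CHP-212 GFP it was TRIM6 at 0 h, at -0.88, and in IMR-32 FOXP1 it was TRIM7 at 24 h, at -1.60.

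CXCL12, IL17RD, HLA-DOB and IL21R were among the members that differed between cultures in opposite directions in different lines on every time point. Others did so too, such as IL11 (-1.57 in IMR-32, 1.03 in CHP-212) and CD52 (-3.16 in CHP-212, 1.49 in SK-N-BE(2)). The difference between lines was not tested. CXCL12 was lower with FOXP1 in IMR-32 (-2.98) and higher in CHP-212 (2.11) and on the SK-N-BE(2) arrays labelled FOXP1 (1.84). IL17RD was higher in IMR-32 (2.70) and SK-N-BE(2) (2.47) and lower in CHP-212 (-0.85). HLA-DOB was higher in IMR-32 (2.67) and lower in SK-N-BE(2) (-1.85). IL21R was higher in SK-N-BE(2) (1.02) and lower in IMR-32 (-0.69).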

How the results depend on the processing

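With normexp, the members called between FOXP1 and GFP in IMR-32 numbered 7 against 29, those between IMR-32 and SK-N-BE(2) 12 (6 higher, 6 lower) against 32 (8 and 24), and those from 0 to 12 h 0 against 1. Over all probes, these counts were 1425 against 4123, 4922 against 8890 and 701 against 1402. In CHP-212, normexp called 7 higher and 5 lower against 5 and 7. Requiring detection on all 8 arrays left 16 in IMR-32 and 7 in CHP-212, and detection on 12 of 24 arrays left 28 between CHP-212 and SK-N-BE(2). In SK-N-BE(2), 0 members were called by limma without 0 h, where 40 of all probes were called against 242. The methods' t-test, unadjusted, called 10 in SK-N-BE(2), or 3 after Benjamini-Hochberg, and 20 in CHP-212. Leaving out each array in turn, the counts ranged for FOXP1 against GFP from 27 to 29 (IMR-32), 9 to 14 (CHP-212) and 3 to 6 (SK-N-BE(2), 3 without the 12 h array labelled FOXP1), 44 to 46, 30 to 35 and 43 to 44 for the line pairs in the order of the report's background shares, with IMR-32 against SK-N-BE(2) in the middle, and 1 to 2 for 12 against 0 h (2 without the CHP-212 FOXP1 array of 24 or 72 h). Without the CHP-212 slide of 0 and 12 h, chosen after seeing the data, 9 were called in CHP-212 (6 higher, 3 lower). Of all probes, 511 were called in that setting against 994.

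The replicate block (time point) gave 29 (16 higher, 13 lower) for FOXP1 against GFP in IMR-32, 18 (10 and 8, against 5 and 7) in CHP-212 and 9 (5 and 4) for SK-N-BE(2), and 45, 32 and 44 for the line pairs. With no replicate block, the time steps gave 1 and 0.

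With GFP cultures alone, IMR-32 minus CHP-212 turned to 0.93 for CXCL12. In that setting, IMR-32 minus SK-N-BE(2) was -0.53 for CXCL14 and 1.16 for IFI44, opposite in sign to the main fit. However, no GFP array in either line detected CXCL14, and only 1 GFP array, in IMR-32, detected IFI44. These values compare signals near background and cannot order the lines. In IMR-32, CXCL14 was detected in the FOXP1 culture only. With normexp, IMR-32 minus SK-N-BE(2) turned to 0.0799 for IFITM1, which no IMR-32 array detected. The cause of these changes was not tested. The median of all probes moved with the scaling, by normexp to 0.22 for FOXP1 minus GFP in IMR-32 and 0.14 in CHP-212, and by quantile normalization to 0.06 for IMR-32 minus CHP-212, against -0.11. Signal near background limits what can be said of the 47 members detected on under 12 arrays.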
